A study of Homo sapiens with 3 samples.

Results

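The genes described here are 8 reference genes that laboratories commonly use to normalize expression measurements, namely ACTB, PPIA, TBP, YWHAZ, GUSB, HPRT1, IPO8 and POLR2A. They were chosen by gene symbol from a list of common reference genes, with no threshold on a measured value, and are 8 of the 18856 genes listed in at least 1 library. All 8 were listed in all 3 libraries and all passed the minimum of 10 reads in each. The libraries were HBE LIEA, A549 LIEA and HBE Smart-seq2, each made from 10 pg of polyA+ mRNA that the study diluted from bulk mRNA of cultured cells. HBE is a line of human bronchial epithelial cells, and A549 is a line of adenocarcinoma cells labelled as alveolar basal epithelial. No treatment, time or genotype is given for either line. LIEA (Low-Input, Equal-Amplification) fragments the mRNA, ligates adapters and reads the amplified fragments on an Ion Torrent sequencer, while Smart-seq2 copies the mRNA from its poly(A) tail, amplifies the whole cDNA and is read on an Illumina sequencer. Each condition had 1 library, so no difference below has a replicate check and no test was made. The 95% intervals given below are exact, cover counting error only, and treat every read as independent although PCR copies of 1 molecule are not.

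A reference gene is meant to stand for the amount of RNA that entered a reaction, so that the level of another gene can be expressed relative to it. The usual choices are housekeeping genes of unrelated function, because genes of 1 pathway may change together, and several are often averaged. A reference gene is useful for a comparison where its own level differs little between the samples compared.

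The 8 genes come from different parts of the cell's machinery. ACTB encodes beta-actin, a main protein of the cytoskeleton, and lies on chr7:5566040-5603533 on the minus strand of GRCh37. YWHAZ encodes the zeta member of the 14-3-3 proteins, adaptors that bind phosphorylated partners. PPIA encodes cyclophilin A, a prolyl isomerase of the cytosol that binds cyclosporin, and lies on chr7:44836279-44864163 on the plus strand. HPRT1 (chrX:133594195-133654543, plus strand) encodes the enzyme that recycles hypoxanthine and guanine into nucleotides. GUSB (chr7:65425671-65447202, minus strand) encodes beta-glucuronidase of the lysosome. POLR2A (chr17:7387685-7417933, plus strand) encodes the largest subunit of RNA polymerase II, and TBP (chr6:170863390-170881958, plus strand) encodes the TATA-binding protein that helps to place that polymerase at promoters. IPO8 (chr12:30781922-30848803, minus strand) encodes importin 8, which carries proteins into the nucleus.

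ACTB and PPIA have close copies elsewhere in the genome, and a short read from a shared stretch fits both genes. The longest identical stretch between the coding sequences of ACTB and ACTG1, the gene of gamma-actin, was 59 nt. It is shown here with the nearest differing bases, which are in capitals, on the coding strand of GRCh37 and within 1 exon of each gene (ACTB at chr7:5567717-5567799, ACTG1 at chr17:79478035-79478117, both on the minus strand).
ACTB: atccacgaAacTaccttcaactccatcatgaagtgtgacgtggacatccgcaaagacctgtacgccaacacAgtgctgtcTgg
ACTG1: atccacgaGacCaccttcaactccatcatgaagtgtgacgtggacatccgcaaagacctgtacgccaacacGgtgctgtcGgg
The 2 coding sequences differed at 99 of 1128 positions, an identity of 91.2%. They shared 18 windows of 42 nt, against 83 for the coding sequences of PPIA and PPIAL4G.

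PPIA has intronless relatives of the PPIAL4 family. The longest identical run between PPIA and PPIAL4G was 99 nt, and it is printed with capitals again marking the bases that differ (PPIA from exons within chr7:44839383-44840917 on the plus strand, PPIAL4G at chr1:143767455-143767577 on the minus strand).
PPIA: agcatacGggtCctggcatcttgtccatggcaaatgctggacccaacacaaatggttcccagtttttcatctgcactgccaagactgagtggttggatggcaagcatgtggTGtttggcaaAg
PPIAL4G: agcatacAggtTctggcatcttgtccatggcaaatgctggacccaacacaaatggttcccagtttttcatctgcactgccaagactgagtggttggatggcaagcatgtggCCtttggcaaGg
The study also designed a PCR primer pair on PPIA, shown because both primers can be compared with the copies. The forward primer lies in exon 3 at chr7:44839004-44839024 and the reverse primer in exon 4 at chr7:44839391-44839410, on either side of the intron at chr7:44839080-44839300, with a product of 186 nt on the transcript.
PPIA forward: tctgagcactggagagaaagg
PPIA reverse: atggacaagatgccaggacc
The forward primer was found without a mismatch in 4 other listed genes (PPIAL4C, PPIAL4E, PPIAL4G and PPIAP30), and the reverse primer in 1 (PPIAP30). PPIAP30 thus held both primers, and the reverse primer had 1 mismatch in PPIAL4G.

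Over whole transcripts, ACTB shared 125 of its 1771 windows of 42 nt (7.06%) with other listed genes, among them POTE genes that carry an actin-like part. PPIA shared 150 of 2196 (6.83%). TBP shared 55 of 1820 (3.02%), with MAML3, ATN1 and other genes. GUSB shared 54 of 2158 with GUSBP pseudogenes. YWHAZ, HPRT1, IPO8 and POLR2A shared none.

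The total behind the values was 4605855 reads in HBE LIEA, 4154060 in A549 LIEA and 9845150 in HBE Smart-seq2, and between 12336 and 12973 genes had at least 10 reads. Of the 8 epithelial markers, 8 had at least 10 reads in every library, but their levels differed between the lines. In A549 LIEA against HBE LIEA, 3 of the 8 were past 2-fold higher and 4 lower, against 13.5% and 17.4% of all genes. Their log2 ratios ran from -6.88 for CLDN7 (11 reads in A549 LIEA, 1441 in HBE LIEA) to 2.97 for KRT8. The 4 markers of basal airway cells summed to 1686 rpkM in HBE LIEA, 6125 in HBE Smart-seq2 and 8.28 in A549 LIEA, where KRT14 was not listed. Of the 3 markers of secretory and alveolar cells, SFTPC was listed in no library, A549 included. SFTPB had 21 reads in HBE LIEA, 20 in A549 LIEA and 49 in Smart-seq2, and SCGB1A1 had 14 reads in Smart-seq2 only. Of 5 leukocyte markers only CD14 and CD68 reached 10 reads in any library, and of 6 fibroblast markers only COL1A1. Of the 4 endothelial markers, 3 reached 10 reads in HBE LIEA, 2 in Smart-seq2 and 0 in A549 LIEA. CDH5 had the most, with 103 reads in HBE LIEA and 180 in Smart-seq2, and the 4 summed to at most 12.3 rpkM. The part of these cell types in the differences below was not tested. The MTRNR2L genes, nuclear copies of a mitochondrial gene, held between 0.131% and 3.84% of the reads, with the highest share in Smart-seq2.

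Levels are rpkM, reads per kilobase of transcript per 1000000 mapped reads, so that genes of different length can be compared. ACTB had the highest level of the 8 genes in every library. It was at 3960 rpkM (3917 to 4003, 33049 reads) in HBE LIEA, 3756 (3712 to 3800, 28273 reads) in A549 LIEA and 6138 (6102 to 6175, 109503 reads) in HBE Smart-seq2. The 2 LIEA values were close and the Smart-seq2 value stood above both.
PPIA was at 790.1 rpkM (773.2 to 807.3, 8283 reads) in HBE LIEA, 405.8 (393.1 to 418.9, 3837 reads) in A549 LIEA and 1966 (1948 to 1985, 44060 reads) in Smart-seq2. All 3 levels of PPIA were apart, with A549 the lowest and Smart-seq2 the highest. YWHAZ was at 139.8 rpkM (133.7 to 146.1, 1975 reads), 137.2 (130.8 to 143.8, 1748 reads) and 358.2 (351.5 to 365, 10816 reads) in the same order of libraries. The 2 LIEA intervals of YWHAZ overlapped and the Smart-seq2 interval lay above them.

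HPRT1, the purine salvage gene, was at 17.0 rpkM (14.01 to 20.5, 111 reads) in HBE LIEA, 19.1 (15.7 to 22.9, 112 reads) in A549 LIEA and 86.9 (82.0 to 91.9, 1210 reads) in Smart-seq2. Its 2 LIEA levels could not be told apart by counting, and the Smart-seq2 level was several times higher. GUSB went the other way, with 51.5 rpkM (47.3 to 56.0, 545 reads), 40.4 (36.5 to 44.7, 386 reads) and 15.4 (13.8 to 17.1, 348 reads). Smart-seq2 thus gave fewer reads of GUSB than HBE LIEA did, although it had more reads in all.
POLR2A was at 45.9 rpkM (43.5 to 48.3, 1423 reads), 44.1 (41.7 to 46.6, 1234 reads) and 29.7 (28.4 to 31.1, 1971 reads). IPO8 was at 10.4 rpkM (9.17 to 11.8, 256 reads), 8.29 (7.14 to 9.58, 184 reads) and 4.32 (3.77 to 4.92, 227 reads). Both were lowest in Smart-seq2. TBP was at 7.30 rpkM (5.62 to 9.32, 64 reads), 6.95 (5.24 to 9.05, 55 reads) and 8.54 (7.26 to 9.97, 160 reads), and its 3 intervals overlapped.

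The order of the genes by level was the same in its upper part and not below it. ACTB, PPIA and YWHAZ came in this order in each library, with intervals well apart. In HBE LIEA, GUSB, POLR2A, HPRT1, IPO8 and TBP followed, and the intervals of GUSB and POLR2A overlapped, as did those of IPO8 and TBP. In A549 LIEA, POLR2A stood before GUSB and IPO8 before TBP, and both pairs again overlapped. In Smart-seq2, HPRT1 had moved up to the fourth place, before POLR2A, GUSB, TBP and IPO8, and no neighbours overlapped.
ACTB was the gene of rank 3, 7 and 3 among the genes with at least 10 reads in HBE LIEA, A549 LIEA and Smart-seq2. HPRT1 was in the top 34.5% in HBE LIEA and in the top 7.82% in Smart-seq2, while GUSB was in the top 11.8% and the top 33.5%.

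**Figure D1:**
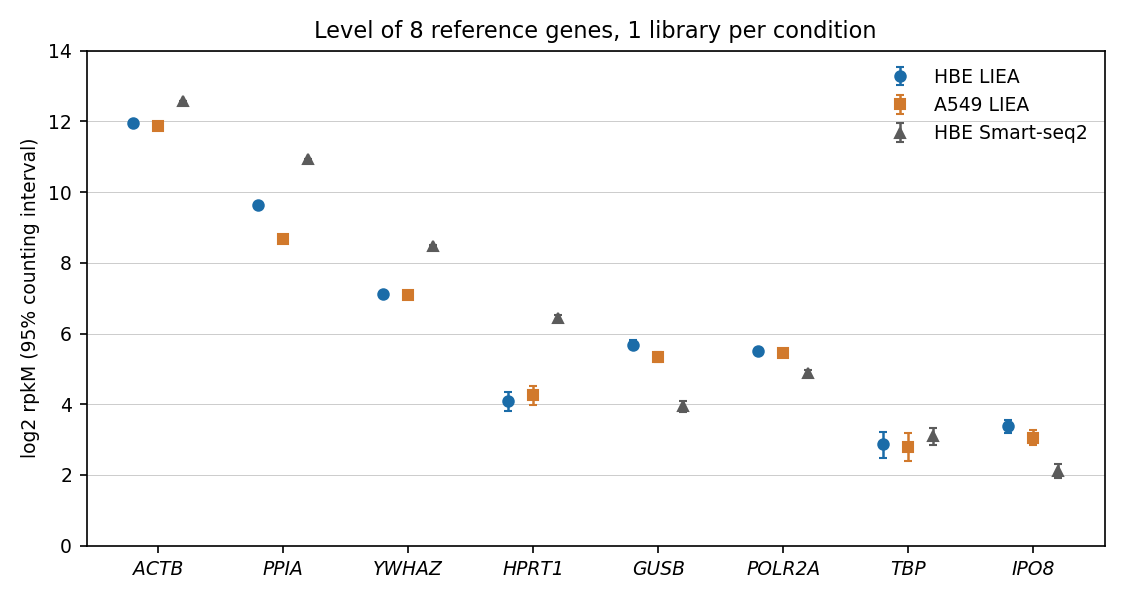
Level of the 8 reference genes in log2 rpkM (vertical axis) in HBE LIEA (circles), A549 LIEA (squares) and HBE Smart-seq2 (triangles), with 95% counting intervals and 1 library per condition. Circles and squares lie close for 7 genes and apart for PPIA (9.63 and 8.66), while the triangles lie above the circles for HPRT1 (6.44 against 4.09) and below them for GUSB (3.94 against 5.69).

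The first comparison, A549 LIEA against HBE LIEA, sets the 2 cell lines side by side under the same method. Between the lines, 7 of the 8 genes differed by less than 1.5-fold, and PPIA was the exception. PPIA was 1.95-fold lower in A549, a log2 ratio of -0.96 (-1.02 to -0.91). The range of the other 7 was -0.35 to 0.16. In a bulk extract, fewer cells that carry an mRNA and less of it per cell cannot be told apart.
Among the others, YWHAZ had a log2 ratio of -0.03 (-0.12 to 0.07), POLR2A of -0.06 (-0.17 to 0.05) and TBP of -0.07 (-0.62 to 0.47). The interval of TBP is wide, since it rests on 64 and 55 reads, and a difference was not detectable at this depth. ACTB had a ratio of -0.08 (-0.10 to -0.05), whose interval lay below 0. GUSB had a ratio of -0.35 (-0.54 to -0.16) and IPO8 of -0.33 (-0.61 to -0.05), and both intervals lay below 0. HPRT1 was the gene with a ratio above 0, at 0.16 (-0.23 to 0.55). The interval held 0 for 4 of the 8 genes (TBP, YWHAZ, HPRT1 and POLR2A).

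None of the 8 genes (0 of 8) passed 2-fold between the lines, where 30.8% of the 11319 genes with at least 10 reads in both did (13.5% higher and 17.4% lower in A549). With 1.5-fold the numbers were 1 of 8 and 54.3%. PPIA lay just inside 2-fold, and with values rescaled to TPM its ratio was -1.12. The median of the 8 log2 ratios was -0.07 and the median of all genes -0.16. Relative to that all-gene median, ACTB, TBP, YWHAZ and POLR2A were slightly higher in A549, the median of the 8 became 0.09, and 5 genes were above 0 in place of 1. The median of the absolute ratios was 0.12 over the 8 genes and 0.65 over all genes.
Among genes as abundant as ACTB, PPIA and YWHAZ (a mean of 100 rpkM and above), 23.5% passed 2-fold, against 27.9% between 10 and 100 rpkM, 34.6% between 1 and 10 rpkM and 28.3% below 1 rpkM.

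The second comparison, LIEA against Smart-seq2 of the same HBE mRNA, sets the 2 methods side by side. It shares the LIEA library of HBE with the first comparison. Here 5 of the 8 genes passed 2-fold, 2 higher in LIEA (GUSB and IPO8) and 3 higher in Smart-seq2 (PPIA, YWHAZ and HPRT1). Of the 11747 genes tested, 47.2% passed 2-fold, 27.8% higher in LIEA and 19.4% lower, so a difference of this size was common among all genes too.
HPRT1 differed most, with a level 5.10-fold lower in LIEA and a log2 ratio of -2.35 (-2.64 to -2.07). YWHAZ had a ratio of -1.36 (-1.43 to -1.29) and PPIA of -1.32 (-1.35 to -1.28), which is 2.56-fold and 2.49-fold lower in LIEA. ACTB had a ratio of -0.63 (-0.65 to -0.61). In the opposite direction, GUSB was 3.35-fold higher in LIEA, with a ratio of 1.74 (1.55 to 1.94). With the reads of the GUSBP pseudogenes added, a choice made after the data were seen, its ratio was 0.94, and 4 of the 8 genes in place of 5 passed 2-fold. IPO8 was 2.41-fold higher, at 1.27 (1.01 to 1.53), and POLR2A 1.54-fold higher, at 0.63 (0.53 to 0.73). TBP was the closest, at -0.23 (-0.67 to 0.20), and the single gene whose interval held 0.

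Within 1.5-fold there was 1 of the 8 genes, TBP, against 33.0% of all genes, and 7 of 8 passed 1.5-fold against 67% of all genes. The median log2 ratio of the 8 was -0.43 and of all genes 0.10. The ratios spanned 4.09 over the 8 genes, against 1.12 between the cell lines. The median absolute ratio was 1.29 over the 8 genes and 0.94 over all genes, and 3 of the 8 lay under the latter. HPRT1 was the gene outside the 10th to 90th percentile of all genes (-1.46 to 2.28). The 5 genes lower in LIEA (ACTB, PPIA, TBP, YWHAZ and HPRT1) and the 3 higher in LIEA had the same directions with TPM, with ratios centred on the median gene, with TMM scaling and with the MTRNR2L reads left out of the totals.

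**Figure D2:**
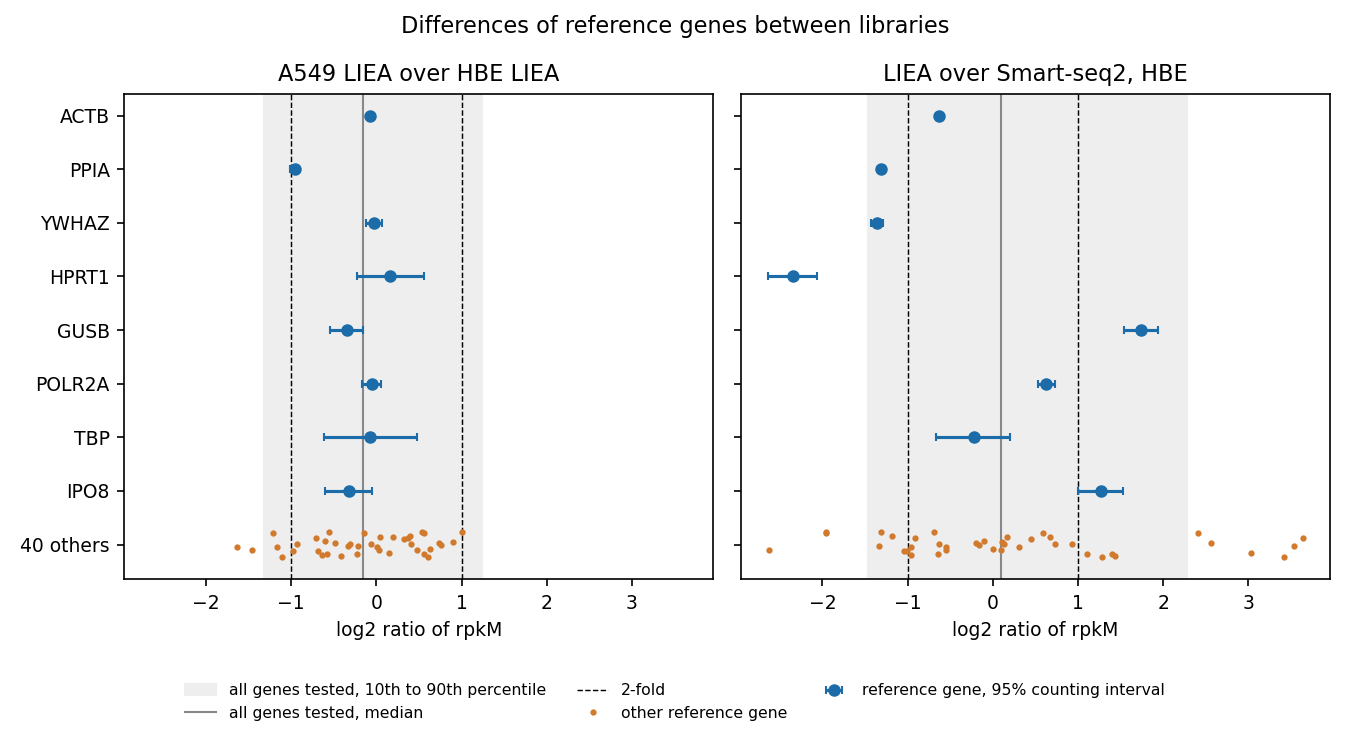
Log2 ratio of rpkM (horizontal axis) of the 8 reference genes (circles, 95% counting intervals) and of 40 other commonly used reference genes (small points), A549 LIEA over HBE LIEA on the left and HBE LIEA over HBE Smart-seq2 on the right, with 1 library per condition. The grey band is the 10th to 90th percentile of all genes tested and the dashed lines mark 2-fold: on the left the 8 genes lie between -0.96 and 0.16, on the right between -2.35 and 1.74.

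Over the 3 libraries, the genes were ordered by the range of their log2 levels. TBP varied least, with a range of 0.30, followed by POLR2A with 0.63 and ACTB with 0.71. IPO8 had a range of 1.27 and YWHAZ of 1.38, near the median of 1.45 over 10934 genes. GUSB (1.74), PPIA (2.28) and HPRT1 (2.35) lay above it. A smaller range than that of TBP was found in 2.86% of the genes, and than that of HPRT1 in 77.2%. The low range of TBP is that of a gene with few reads, and the intervals of its level were the widest of the 8. YWHAZ had close levels in the LIEA libraries, so that its range was the step between the methods, and the same held for HPRT1.
The mean SD of the log2 ratios of a gene to each of the other 7, the measure of the geNorm method, gave TBP (0.771) and ACTB (0.775) as the most stable, then POLR2A (0.911), YWHAZ (0.912), IPO8 (1.08), PPIA (1.15), HPRT1 (1.30) and GUSB (1.30).

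A reference gene is often judged by its ratio to another, and the 8 genes form 28 pairs. The changes of these pairs are differences of the same 8 log2 ratios, so their counts are not separate evidence. Pairs of other genes were not counted. Between the cell lines, the ratio changed by less than 1.5-fold in 21 pairs, which were all 21 pairs without PPIA. The closest was ACTB with TBP, which changed by 1.005-fold, and the widest without PPIA changed by 1.43-fold. PPIA with HPRT1 changed by 2.18-fold and was the 1 pair past 2-fold.
Between the methods, 3 pairs stayed within 1.5-fold and 20 passed 2-fold. GUSB with HPRT1 changed by 17.1-fold, so that GUSB was above HPRT1 in LIEA and below it in Smart-seq2. PPIA with YWHAZ changed by 1.03-fold, although each of these genes differed more than 2-fold by itself.

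**Figure D3:**
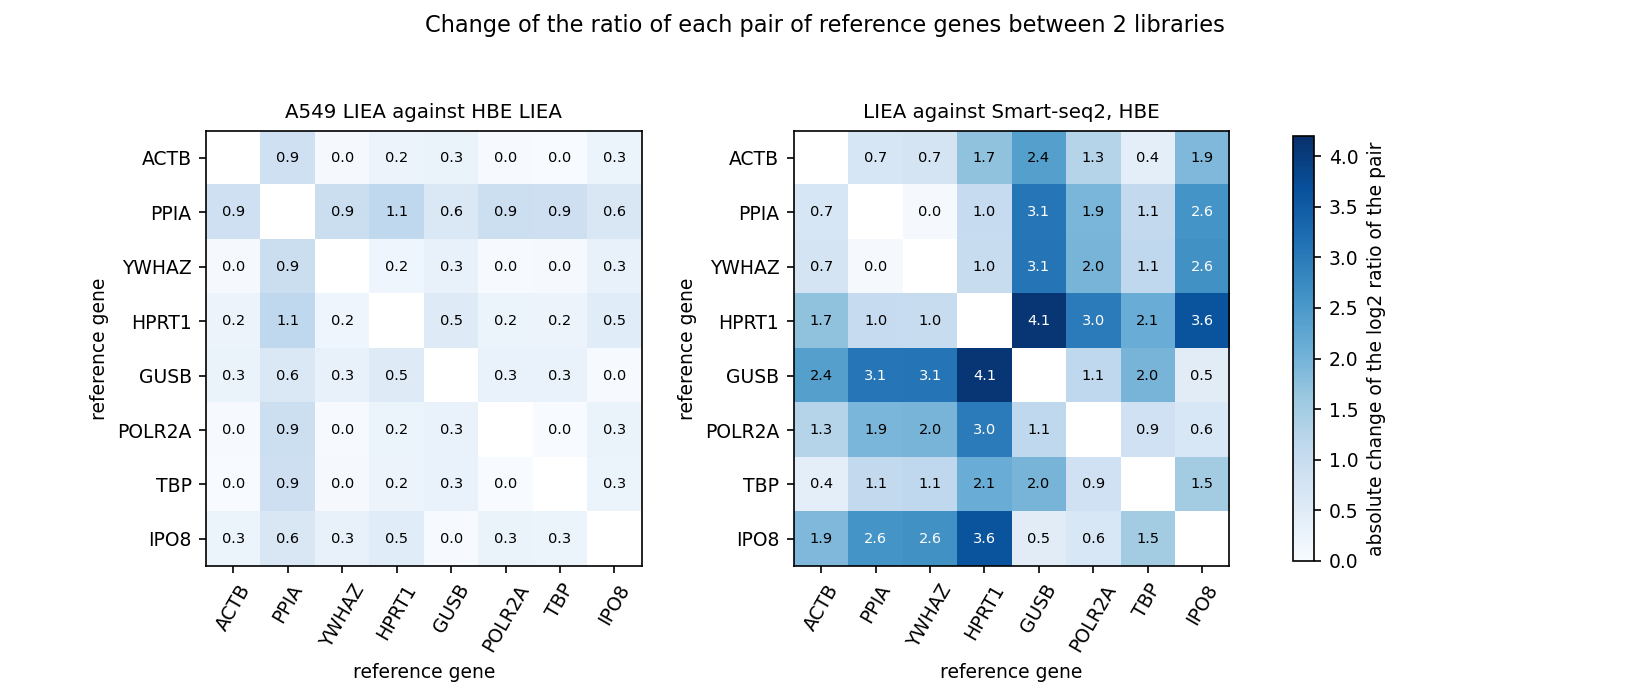
Absolute change of the log2 ratio of each pair of reference genes (rows and columns) between A549 LIEA and HBE LIEA on the left and between LIEA and HBE Smart-seq2 on the right, with darker blue for a larger change and 1 library per condition. On the left the row of PPIA holds the largest values (up to 1.12), and on the right the pair of GUSB and HPRT1 has the largest change (4.09).

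If both libraries are scaled on 1 reference gene, the ratios of all other genes shift with that gene. Between the cell lines, scaling on ACTB left the median of the other 11311 genes at -0.09, on TBP at -0.09, on POLR2A at -0.11 and on YWHAZ at -0.14. Scaling on PPIA moved it to 0.80, with 41.3% of genes past 2-fold higher in A549 and 3.92% lower. With GUSB it was 0.19, with IPO8 0.16 and with HPRT1 -0.33. The geometric mean of the 8 genes gave 0.05, and rpkM without such scaling -0.16.
Between the methods, the sign of the median depended on the gene chosen. Scaling on HPRT1 gave a median of 2.45 over 11739 genes, with 88.2% of them past 2-fold higher in LIEA. YWHAZ gave 1.46, PPIA 1.41 and ACTB 0.73. With GUSB the median was -1.64, with IPO8 -1.17 and with POLR2A -0.53. TBP gave 0.32 and the geometric mean of the 8 genes 0.38.

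**Figure D4:**
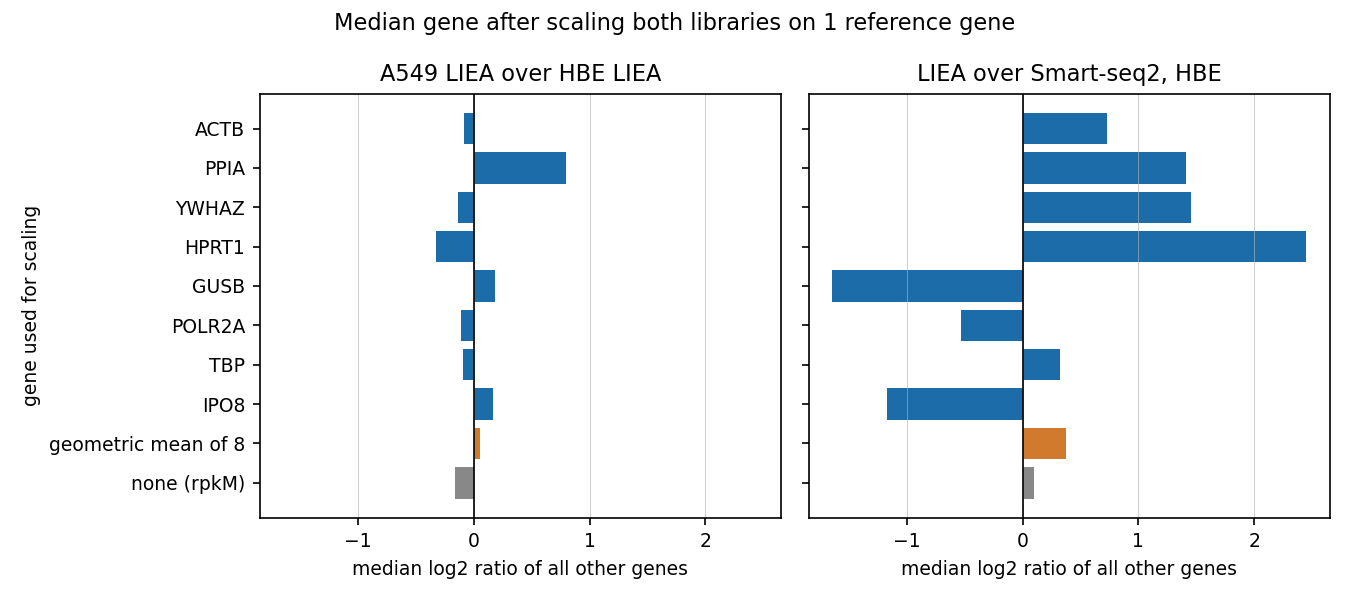
Median log2 ratio of all other genes (horizontal axis) after both libraries were scaled on the gene named on the vertical axis, on the geometric mean of the 8 genes (orange) or on none (grey, rpkM), for A549 LIEA over HBE LIEA on the left and HBE LIEA over HBE Smart-seq2 on the right. On the left the bar of PPIA is the longest (0.80), and on the right the bars run from -1.64 for GUSB to 2.45 for HPRT1.

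The transcripts of the 8 genes differ in length and base composition. Their recovered lengths ran from 1415 nt for HPRT1 and 1812 nt for ACTB to 5341 nt for IPO8 and 6738 nt for POLR2A. The GC content was 39.0% for YWHAZ, 40.4% for HPRT1, 41.1% for IPO8, 46.0% for PPIA, 46.4% for TBP, 55.2% for ACTB, 55.5% for GUSB and 56.1% for POLR2A.
Over all genes, the median log2 ratio between the methods rose from -0.68 below 40% GC through -0.29 (40 to 45%) and 0.05 (45 to 50%) to 0.63 (55 to 60%) and 0.99 above. Among the 8 genes, YWHAZ, HPRT1, PPIA, TBP and ACTB lay below the median of their bin and GUSB and IPO8 above. IPO8 was low in GC and had a ratio of 1.27, and ACTB was high in GC and had a ratio of -0.63, each on the other side of 0 from its bin's median. PPIA (-1.32) and TBP (-0.23) were also on the other side of 0 from their bin's median, which was 0.05. POLR2A, at 0.63, lay at the median of its bin. Across the 8 genes, Spearman's rho was 0.67 with GC content and 0.55 with length, and 0.39 and 0.28 across 10825 genes. These are descriptions of genes that share the same 2 libraries. By mean level, the median ratio of all genes between the methods was 0.90 below 1 rpkM and 0.39 between 1 and 10 rpkM. It was -0.20 between 10 and 100 rpkM and -0.42 at 100 rpkM and above, where ACTB, PPIA and YWHAZ lay. GUSB, POLR2A and TBP were on the other side of 0 from the median of their level group. The parts of base composition and of level in the differences were not tested.

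**Figure D5:**
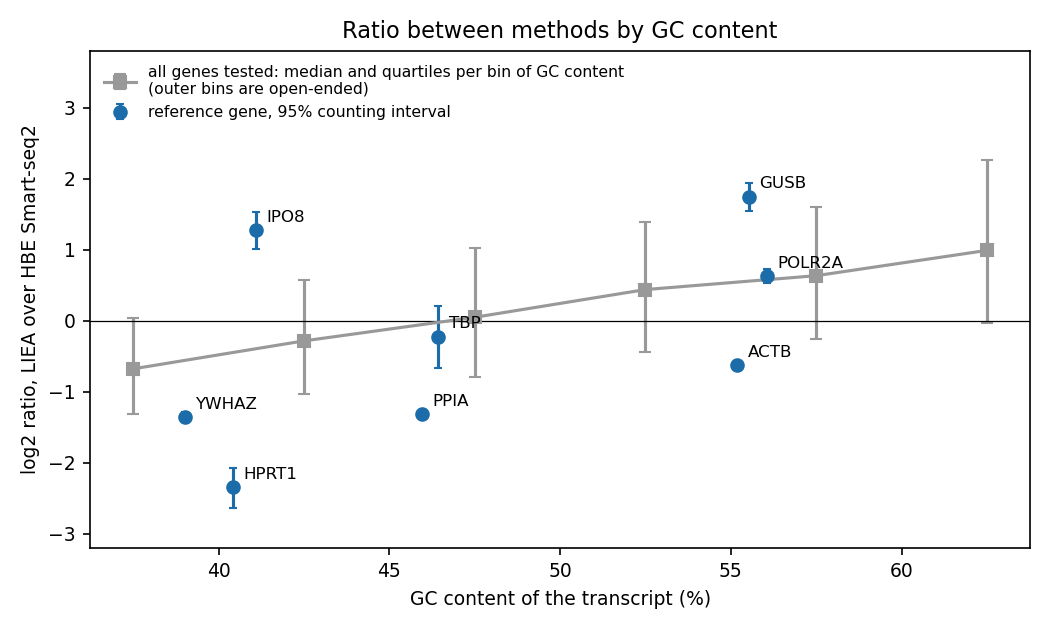
Log2 ratio of HBE LIEA over HBE Smart-seq2 (vertical axis) against GC content of the transcript in percent (horizontal axis) for the 8 reference genes (circles, 95% counting intervals), with the median and quartiles of all genes per bin of GC content (squares). The medians rise from -0.68 to 0.99, IPO8 (1.27) lies above those of low GC, and ACTB (-0.63) lies below those of high GC.

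The copies of PPIA were lower in LIEA, as PPIA was, and by more. The 3 PPIAL4 genes had 320 reads in HBE LIEA, 178 in A549 LIEA and 10172 in Smart-seq2, which is 3.86, 4.64 and 23.1 reads per 100 reads of PPIA. PPIAL4G alone had a log2 ratio of -4.45 for LIEA over Smart-seq2 and PPIAL4C of -3.33. How the mapping shared reads between PPIA and these copies is not spelled out in the sources used here, so the levels of these copies are uncertain. With the PPIAL4 reads added, a choice made after the data were seen, PPIA had a ratio of -0.95 between the cell lines and -1.56 between the methods.
ACTG1 had 9848, 28981 and 21650 reads in the 3 libraries in the same order, a log2 ratio of 1.71 between the cell lines, where ACTB had -0.08. ACTB and ACTG1 together were 0.57 on the log2 scale higher in A549, so that the direction of the summed cytoplasmic actins was not that of ACTB. Between the methods the sum had a ratio of -0.52. The 7 GUSBP pseudogenes had 234, 177 and 518 reads, and with them GUSB had a ratio of -0.32 between the cell lines. GUSBP1 held 108, 68 and 377 of these reads. Of the 54 windows that GUSB shared, 43 were found in GUSBP2, which had 2, 2 and 3 reads. Whether reads of GUSB were assigned to these pseudogenes was not tested.

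The other members of the families were counted the same way, beside all-gene shares past 2-fold of 13.5% higher and 17.4% lower in A549, and of 27.8% higher and 19.4% lower in LIEA. Of the 17 cyclophilins tested beside PPIA, PPIAL4C and PPIAL4G included, 0 passed 2-fold higher in A549 and 4 lower (PPIC with a log2 ratio of -1.70, PPID with -1.31, PPIF with -1.84 and PPIH with -1.51), with a median of -0.50. Between the methods 1 of these 17 was higher in LIEA (NKTR, 1.51) and 9 lower, with a median of -1.13. PPIB, the cyclophilin of the endoplasmic reticulum, had a ratio of 0.19 between the cell lines and -1.22 between the methods.
Of the 6 other 14-3-3 genes, SFN (stratifin) was the 1 past 2-fold between the cell lines, with -1.31. Between the methods YWHAG had a ratio of 2.80 and YWHAQ of -1.37, so these relatives of YWHAZ lay on both sides. ACTA2, an actin of smooth muscle, had a ratio of 1.80 between the cell lines on 15 and 47 reads.

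Of all genes, 30.8% passed 2-fold between the cell lines and 47.2% between the methods, and the counts of the nuclear lists are given beside these shares. Of the 11 other subunits of RNA polymerase II, 2 were past 2-fold higher in A549 (POLR2C with 1.19 and POLR2I with 1.06) and 1 lower (POLR2H with -1.39), with a median of -0.03. Between the methods 5 were higher in LIEA and 2 lower, with a median of 0.84, so POLR2A (-0.06 and 0.63) lay near the median of its partners in both, while the partners themselves ran from -1.39 to 1.19 and from -1.61 to 2.20. Of the 16 other TFIID subunits and TBP relatives tested, 2 were higher in A549 (TAF9B with 1.22 and TAF12 with 2.32) and 3 lower (TAF2, TAF4 and TAF5). TAF12 had 10 reads in HBE LIEA. Between the methods 3 of 15 were higher in LIEA, with TAF10 at 3.11, and 6 lower, with TAF9B at -2.28 and TBPL1 at -2.24. TBP, at -0.23, lay near the median of the list (-0.10).
Of the 19 other importins and exportins, 0 were higher in A549 and 4 lower, against 17.4% lower of all genes, with TNPO2 at -1.99 and CSE1L at -1.35, and the median was -0.86, below the -0.33 of IPO8. Between the methods 5 were higher in LIEA, among them TNPO2 with 3.39 and KPNB1, the importin of the classical import route, with 3.14, and 2 lower (XPOT with -1.21 and CSE1L with -1.41).

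Of the 11 other genes listed for purine and pyrimidine salvage, against 13.5% higher and 17.4% lower of all genes, 0 were higher in A549 and 3 lower (ADK with -1.15, DCK with -1.41 and IMPDH2, an enzyme of guanine nucleotide synthesis, with -1.38). Between the methods APRT, which recycles adenine as HPRT1 recycles hypoxanthine and guanine, had a ratio of 2.16 where HPRT1 had -2.35, and ADK had -1.42. Of the 16 other lysosomal glycosidases and GUSBP genes tested, 3 were higher in A549 (HEXA with 1.15, GLA with 1.64 and IDS, a lysosomal sulfatase, with 1.72) and 1 lower (MANBA with -1.09). Between the methods 4 were higher in LIEA, against 27.8% of all genes, among them NAGLU with 2.12.

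A list of 40 other genes in common use as references gives the setting of these values. Between the cell lines, 1 of the 40 passed 2-fold higher in A549 (CHMP2A, 1.004) and 5 lower (TOP1 with -1.63, SDHA with -1.46, B2M with -1.21, TFRC with -1.17 and BCR with -1.11), and 23 were within 1.5-fold, with a median of -0.11. Of all genes, 30.8% passed 2-fold and 45.7% were within 1.5-fold. Between the methods 10 were higher in LIEA and 8 lower, 12 were within 1.5-fold and the median was 0.05, where 47.2% of all genes passed 2-fold and 33.0% were within 1.5-fold.
The smallest ranges over the 3 libraries were those of CDKN1A (0.36), CASC3 (0.54) and EIF4A2 (0.55), all larger than the 0.30 of TBP. The largest were those of RPS18 (3.64), HNRNPL (3.53) and BCR (3.41), all larger than the 2.35 of HPRT1. In each of these 3 the Smart-seq2 level was the lowest.

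For each reference gene, the other gene with the most similar levels was the one with the smallest root mean square difference of log2 rpkM over the 3 libraries, among 10926 genes. It was TADA1 for TBP (a difference of 0.061), TMED9 for YWHAZ (0.072), ATF6B for GUSB (0.13), TRIAP1 for HPRT1 (0.15), MESDC1 for IPO8 (0.031), TRPC4AP for POLR2A (0.054) and LDHA for PPIA (0.36). ACTB had no close neighbour, and the nearest was GAPDH at 0.68. GAPDH, itself a common reference gene, was lower in Smart-seq2 (12.08) than in HBE LIEA (12.81), where ACTB was higher in Smart-seq2.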

How the data were processed

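Values were taken from 3 deposited files, 1 per library, in which the authors gave log2 rpkM per gene with no pseudocount and without the genes that had no reads. Per the study's methods, reads were mapped with FANSe2 to RefSeq-RNA and splice variants were merged. The FANSe2 version is not given in the sources used here, and the submitters' processing notes name hg19. Ion Torrent and Illumina reads went through different error allowances, which cannot be told apart from the library methods.

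Reads were recovered because the values of a gene are whole multiples of 1 read. The total of HBE LIEA was set from 448 genes with equal reads in both LIEA libraries. It was the largest whole number at which at least 30% of them gave whole lengths, and 55.6% did. The other totals followed from the most common log2 shift between each library and HBE LIEA. A common factor of reads and length was chosen by annotated lengths (94.1% of genes matched) and exceeded 1 for 1723 genes. The factor was 1 for all 8 reference genes. Recovered reads summed to between 100.4% and 100.8% of the totals, so some factors are too large. On simulated data made from all 3 libraries, 3 of 3 totals and the reads of 96.1% of 17216 genes were recovered. The simulation took over the lengths recovered here, so it cannot show whether the factors chosen for the real data are right. Simulated for A549 LIEA against HBE LIEA, 200 of 200 genes changed 4-fold passed 2-fold, with a median log2 ratio of 1.87. They were drawn from genes with at least 200 reads in HBE LIEA, where a 4-fold change was nearly sure to pass 2-fold. The check therefore does not cover genes with fewer reads, such as TBP (64) and HPRT1 (111). In each library 4 entries with repeated, date-like names were dropped, and 1589 blank entries in Smart-seq2.

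Genes with at least 10 reads in both libraries were compared, and 2-fold was the limit. A count of 3 reads corresponds to between 0.305 and 0.722 reads per 1000000. Intervals are 95% (exact Poisson for levels, Clopper-Pearson for ratios). The reference genes, the families and the list of 40 were chosen with earlier results of these data known. The text names all 8 genes, relatives past 2-fold as counts with examples, the 3 widest and 3 narrowest of the 40, and the nearest gene to each. Transcripts, coordinates and GC content came from GENCODE release 44 on GRCh37, and primers from the study's supplementary table. Other scalings, a pseudocount of 1, other minimums and 1.5-fold were tried, and, after the data were seen, adding the reads of close copies. The tools were matplotlib 3.10.9, pandas 2.3.3, scipy 1.17.1 and numpy 2.4.6 under Python 3.11.15. Bulk mRNA-seq was not analysed here. Some results of the gene lists are not reported here.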

Additional observations from a re-analysis of the deposited data

How the results depend on the processing

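No paired analysis was possible because every library stands alone with no number to link it to another, and for the same reason no replicate could be left out. Between the cell lines, the count of reference genes past the limit was 0, and it became 1 (PPIA, -1.12) when values were rescaled to TPM and 1 with 1.5-fold as the limit. The count of 5 between the methods moved by at most 1.5 times (to 7 with 1.5-fold). Both medians moved by less than the half-width of the widest counting interval of their comparison, that of TBP. The ranges over the 3 libraries moved by less than the half-width between the methods (0.43). Between the lines the half-width is large (0.54), and the median changed sign within it, from -0.07 to 0.09 when centred. The minimums and 1.5-fold could not move the medians, spans or ranges, because they leave the values of the reference genes unchanged. The scalings could not move the spans, because they shift all genes alike. Only the pseudocount could, and it gave spans of 1.113 between the lines (from 1.123) and 3.965 between the methods (from 4.094). Of the 40 values of single genes per comparison that a scaling or pseudocount could move, 12 between the cell lines and 14 between the methods left their counting interval. Between the lines, ACTB (0.09), TBP, YWHAZ (0.14) and POLR2A (0.11) changed sign when centred on the median gene or scaled by TMM. The order of constancy, recomputed with centring, TPM, a pseudocount and both other minimums, began with TBP in each and ended with HPRT1 except with TPM, where it ended with PPIA (2.24). Over all genes, those past the limit between the lines numbered 3490, or 6149 with 1.5-fold. They split into 1524 higher and 1966 lower, 2837 and 2954 with no minimum, 1268 and 2553 with TPM, 1860 and 1499 when centred, and 1861 and 1499 with TMM. Between the methods 3266 were higher and 2283 lower, with TPM 3776 and 1775. TBP, with 55 to 160 reads, has the least precise values.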

Other observations

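Among the 357 genes with at least 1000 reads in each library, a limit chosen after the values were seen, some varied less over the 3 libraries than any of the 8 reference genes. EIF6, a factor that keeps the ribosomal subunits apart, had the smallest range of log2 rpkM, 0.086, with 8.13 in HBE LIEA, 8.10 in A549 LIEA and 8.19 in Smart-seq2. ACTN1, an actin cross-linking protein, had a range of 0.092. NACA, which binds new polypeptides at the ribosome, had a range of 0.11, and the lysosomal protease gene CTSD and the ribosomal protein gene RPS6 had ranges of 0.12. These genes were picked as the smallest of many in single libraries, so their ranges describe these 3 libraries and were not tested in others.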
